A study of Mus musculus with 13 samples.

Results

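Genes that carry NUP210 along the gene body were compared with genes that carry the promoter mark H3K4me3 in control 4T1 cells, a metastatic mouse mammary tumor line from a BALB/cJ mouse. Of 15473 genes found in either peak list, 3271 had both NUP210 and H3K4me3 (21.1%), 3020 had NUP210 only (19.5%) and 9182 had H3K4me3 only (59.3%). A gene was taken as NUP210-bound when a NUP210 peak touched its gene body, and as H3K4me3-positive when an H3K4me3 peak lay within 4 kb of its transcription start site (TSS). The whole series lists 18040 genes over the 5 peak lists used here.

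The cells (sg-Ctrl) stably carried a non-targeting guide RNA, were selected with puromycin and received Cas9 transiently, and the methods describe single cells expanded into clones after sorting. H3K4me3 and NUP210 were each profiled by chromatin immunoprecipitation sequencing (ChIP-seq) in 1 library of these cells, with rabbit IgG libraries as background. An antibody against several nuclear pore proteins (NPC) and H3K27me3, each with 1 sg-Ctrl library, served as further readouts of the same genes, and H3K4me3 in 1 knockout clone (Nup210 KO-N13) as an alternative. With 1 library per target there is no test over replicates, and the 95% Wilson intervals given cover counting error only. The intervals given for differences treat genes as separate, though genes can share a peak, and do not cover variation between libraries.

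NUP210 is a membrane-anchored nucleoporin, a building block of the nuclear pore complex that sits in the nuclear envelope between nucleus and cytoplasm. Nucleoporins can also contact chromatin, at silent domains near the nuclear periphery as well as at transcribed genes. H3K4me3 is laid down by COMPASS-type methyltransferases at the starts of active genes and at CpG islands, whereas H3K27me3 is the mark of Polycomb repression.

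Promoter sequences are shown first because the 3 classes of genes differed in them. Each runs from 250 bp before to 50 bp after the TSS in the RefSeq promoter table (GRCm38.p6), 5′ to 3′ on the strand of the gene, with every CG dinucleotide in capitals. Rpl37, a ribosomal protein gene with H3K4me3 only (chr15:5116363-5116662, plus strand), had 23 CG. Tpr, a nucleoporin of the nuclear basket with both peaks (chr1:150392588-150392887, plus strand), had 17, and Upf2, a factor of nonsense-mediated mRNA decay with both (chr2:5951219-5951518, plus strand), had 27. Cntn5, a neural cell adhesion gene with NUP210 only (chr9:10904677-10904976, minus strand), had 26, and the olfactory receptor gene Olfr469, also with NUP210 only (chr7:107823418-107823717, minus strand), had 1. Over all 32851 promoters of that table the median was 7, with quartiles of 3 and 20.
Rpl37: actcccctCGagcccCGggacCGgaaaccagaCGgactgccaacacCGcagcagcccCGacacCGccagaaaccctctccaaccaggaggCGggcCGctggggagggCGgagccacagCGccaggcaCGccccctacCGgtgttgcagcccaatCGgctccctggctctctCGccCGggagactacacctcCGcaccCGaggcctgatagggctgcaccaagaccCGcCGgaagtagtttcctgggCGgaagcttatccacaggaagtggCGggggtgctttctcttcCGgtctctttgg
Tpr: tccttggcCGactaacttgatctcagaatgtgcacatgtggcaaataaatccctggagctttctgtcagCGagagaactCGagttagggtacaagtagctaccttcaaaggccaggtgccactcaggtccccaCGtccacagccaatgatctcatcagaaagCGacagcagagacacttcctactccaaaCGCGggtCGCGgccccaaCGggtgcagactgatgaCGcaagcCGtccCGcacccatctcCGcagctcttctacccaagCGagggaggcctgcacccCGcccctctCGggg
Upf2: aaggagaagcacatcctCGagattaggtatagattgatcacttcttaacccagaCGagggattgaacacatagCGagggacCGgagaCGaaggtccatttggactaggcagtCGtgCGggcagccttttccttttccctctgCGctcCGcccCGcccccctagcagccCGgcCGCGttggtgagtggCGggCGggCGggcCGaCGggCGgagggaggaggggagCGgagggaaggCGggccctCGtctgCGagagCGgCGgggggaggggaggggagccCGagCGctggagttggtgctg
Cntn5: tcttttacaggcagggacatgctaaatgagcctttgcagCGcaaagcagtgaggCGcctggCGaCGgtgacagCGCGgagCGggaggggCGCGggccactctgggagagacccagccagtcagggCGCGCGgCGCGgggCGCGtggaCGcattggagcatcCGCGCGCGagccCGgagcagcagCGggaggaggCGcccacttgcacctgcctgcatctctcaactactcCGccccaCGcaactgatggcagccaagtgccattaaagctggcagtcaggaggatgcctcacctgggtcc
Olfr469: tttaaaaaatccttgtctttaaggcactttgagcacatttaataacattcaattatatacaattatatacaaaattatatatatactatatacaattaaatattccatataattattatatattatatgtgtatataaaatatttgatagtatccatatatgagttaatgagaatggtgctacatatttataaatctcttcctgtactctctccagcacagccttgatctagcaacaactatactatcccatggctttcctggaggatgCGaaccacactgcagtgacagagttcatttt

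The 2 peak lists differed in strength and breadth. The 11018 distinct H3K4me3 peaks had a median width of 3400 bp and a median fold over IgG of 49.96, and held 26236314 reads. The 13204 distinct NUP210 peaks had a median width of 14000 bp and a median fold of 1.19, with 7194586 reads. Of the NUP210 peaks, 4093 (31.0%) had a false discovery rate (FDR) above 0.05, 15.2% lay below the scaled IgG reads (a fold under 1), and 424 had a fold of at least 2. All listed peaks entered the grouping, so "NUP210-bound" means a listed peak and not a strong one.

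The labelled cell type was checked at promoters. All 14 epithelial markers had an H3K4me3 peak, among them the adhesion genes Epcam with 577 reads per kb of peak and Cdh1 with 482 reads per kb. H3K4me3 was listed at 1 of 9 immune markers (Cd68), 2 of 7 fibroblast markers (Col1a1 and Pdgfra), none of 6 endothelial markers and none of 4 adipocyte markers. Over all genes the mark was common, at 12453 of the 18040 genes of the 5 peak lists used here. The 14 of 14 epithelial markers therefore say little by themselves.

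NUP210 was found on 3271 of the 12453 H3K4me3 genes (26.3%, interval 25.5 to 27.05%), and H3K4me3 on the same 3271 of the 6291 NUP210 genes (52%, interval 50.8 to 53.2%). Without olfactory and vomeronasal receptor genes, which stand in clusters, about 60% of the NUP210 genes had H3K4me3. The classes differed in gene length. The median was 49.3 kb for genes with both (quartiles 23.4 and 96.2 kb), 14.03 kb with H3K4me3 only (5.91 and 29.8 kb) and 20.7 kb with NUP210 only. The NUP210-only class was spread widely, with quartiles of 1.04 and 90.7 kb, and held 690 olfactory receptor genes, which are about 1 kb long, beside very long neural genes.

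Among H3K4me3 genes, the share with NUP210 was larger in each longer class of 10. It was 6.98% (interval 5.70 to 8.53%) in the shortest class, of genes up to 3.06 kb, and 7.39% in the next. In the middle classes it was 17.3% at 13.9 to 19.3 kb and 24.1% at 19.3 to 26.5 kb. The longest class, of 96.9 kb and more, reached 65.1% (interval 62.5 to 67.7%). A longer gene offers more base pairs for a broad peak to touch, so the comparisons that follow were made within 20 classes of gene length and averaged with the number of bound genes as weight.

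The IgG reads under the H3K4me3 peak moved with the same share. In 20 classes of IgG reads per kb, 7.54% of the genes with the least IgG (up to 0.357 reads per kb) were NUP210-bound, against 25.4% in the class with a median of 10 reads per kb and 62.7% in the class with the most (median 30 reads per kb). Median gene length in these classes ran from 14.2 to 27.8 kb. The H3K4me3 and NUP210 peaks were called against different IgG libraries, and the part of this background signal in the shares was not tested.

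**Figure D1:**
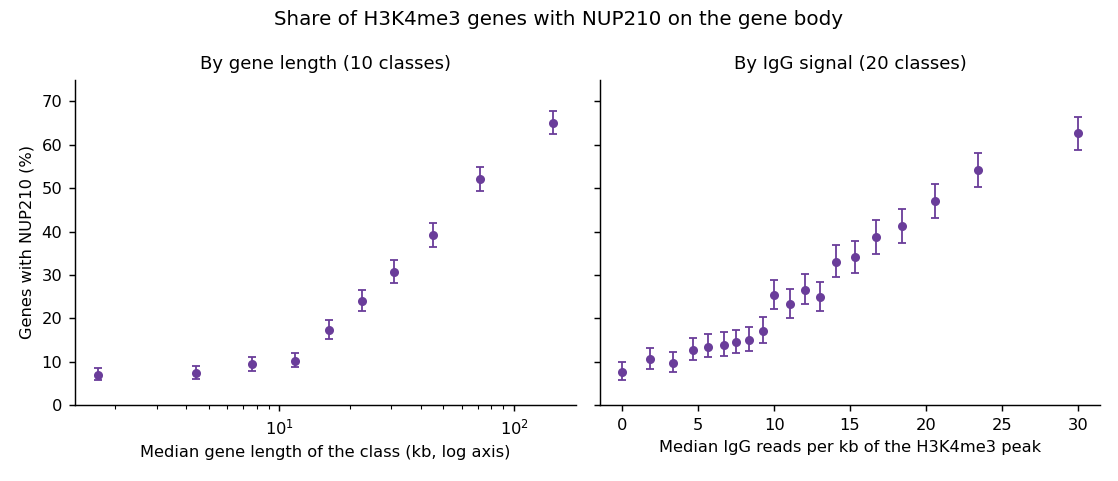
Share of H3K4me3 genes with NUP210 on the gene body (%, vertical axis) against the median gene length of 10 classes (left, kb on a log axis) and against the median IgG reads per kb under the H3K4me3 peak of 20 classes (right). Points are classes and bars are 95% Wilson intervals. The share runs from 6.98 to 65.1% with length and from 7.54 to 62.7% with IgG signal.

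Bound shares also differed between chromosomes. They ran from 8.09% of 940 H3K4me3 genes on chromosome 7 (21.1% from the length classes alone) to 41.4% of 694 on chromosome 1 (29.7% from length). Chromosomes X (15.1%) and 4 (16.1%) were low, and chromosomes 12 (40.8%) and 16 (40.9%) were high. Over the 20 chromosomes the share went with the median IgG reads per kb of the H3K4me3 peaks (r = 0.86, rho = 0.86), as a description over chromosomes of 1 cell line. The part of the IgG signal in these differences was not tested.

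NUP210-bound genes had more H3K4me3 reads per kb than unbound genes of the same length. The median of the densest TSS peak was 701 reads per kb in the 3271 bound genes (quartiles 478 and 950) and 529 in the 9182 unbound genes (347 and 736). Weighted over the length classes the log2 difference was 0.50 (interval 0.45 to 0.54), or 1.41-fold, and the bound genes were higher in 20 of 20 classes, by 0.36 to 0.74. Their peaks were also wider, 4400 bp at the median where unbound genes had 3400 bp, and the weighted log2 difference was 0.41 (interval 0.36 to 0.45), again above 0 in 20 of 20 classes. Counting the reads of every TSS peak of a gene, bound genes had 3226 and unbound genes 1903 reads at the median.

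The same comparison on the fold over IgG pointed the other way. The median fold was 43.2 in bound genes and 57.5 in unbound genes, a weighted log2 difference of -0.32 (interval -0.38 to -0.27), below 0 in 20 of 20 classes. IgG reads in the same H3K4me3 peaks were 15.3 per kb in bound and 9.17 per kb in unbound genes, a weighted log2 difference of 0.72, which is larger than that of H3K4me3 itself. Within classes of IgG reads per kb, the H3K4me3 level differed by 0.22 and the width by 0.38 on the log2 scale. The level was lower in bound genes in 4 of these 20 classes, 3 of them the classes with the least IgG. Within chromosomes and 5 classes of length, the differences were 0.43 for level and 0.38 for width. Without length classes, both differences were above 0 on 20 of 20 chromosomes, with that of level as low as 0.04 on chromosome X.

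**Figure D2:**
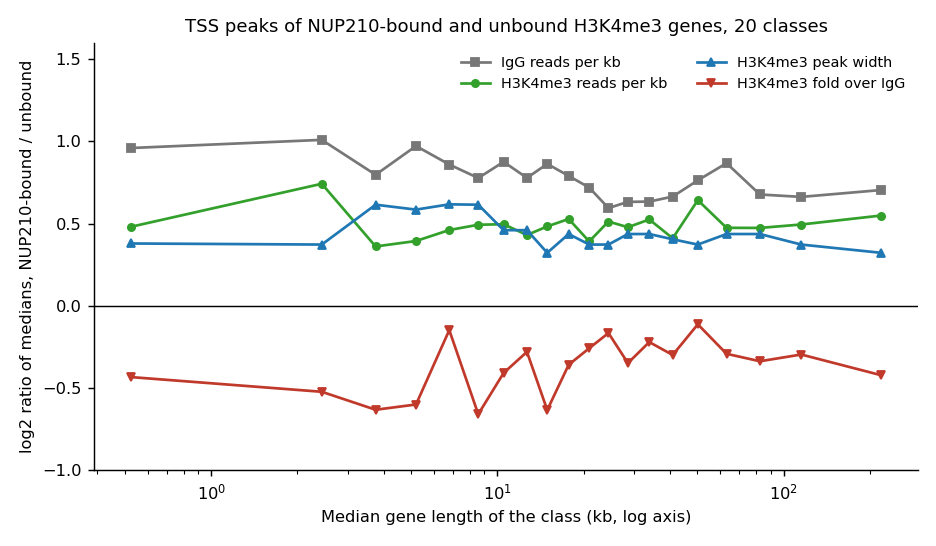
The log2 ratio of the medians of NUP210-bound over unbound H3K4me3 genes (vertical axis) in 20 classes of gene length (median kb, log axis). Green circles are H3K4me3 reads per kb, blue triangles peak width, grey squares IgG reads per kb in the same peaks, and red inverted triangles the fold over IgG. The first 3 lie above 0 in every class and the fold over IgG lies below 0 in every class.

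A stronger NUP210 peak did not go with more H3K4me3. Against unbound genes of the same length, genes whose strongest NUP210 peak had a fold under 1 were higher in H3K4me3 level by 0.48 on the log2 scale, those of 1 to 1.25 by 0.54, of 1.25 to 1.5 by 0.46, of 1.5 to 2 by 0.43, and those of 2 or more by 0.34. The width differences ran from 0.47 at a fold of 1 to 1.25 down to 0.23 at 2 or more. The IgG difference in the same peaks was 0.77 in the weakest class and 0.47 in the strongest. The share of NUP210 genes with H3K4me3 was 54.8% of 591 genes with a fold under 1 and 42.7% of 398 genes with a fold of at least 2 (intervals 50.8 to 58.8% and 37.9 to 47.6%), while the median gene length of these classes was 28.8 and 113 kb.

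At the level of base pairs, the 2 kinds of peak shared 6.19 Mb. This was 15.1% of the bp of H3K4me3 peaks and 2.33% of the bp of NUP210 peaks. A NUP210 peak touched 1685 of the 11018 H3K4me3 peaks (15.3%, interval 14.6 to 16.0%), and 907 of these lay fully inside one. In the other direction, 1585 of the 13204 NUP210 peaks touched an H3K4me3 peak. So 26.3% of H3K4me3 genes were bound somewhere on the gene body, but NUP210 often lay away from the H3K4me3 peak itself.

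H3K4me3 peaks on NUP210 were wider (median 4800 against 3200 bp) and denser (740 against 494 reads per kb) than those off it, with more IgG (17.4 against 9.50 reads per kb) and a lower fold (40.1 against 52.6). NUP210 peaks on H3K4me3 were wider than the rest, at 21000 against 14000 bp. Their fold over IgG was lower, at 1.13 against 1.20, and lower in each of 10 classes of peak width, for example 1.34 against 1.47 in peaks up to 5000 bp and 1.105 against 1.143 in those of at least 40000 bp. An FDR of at most 0.05 was reached by 64.1% of the NUP210 peaks on H3K4me3 and by 69.7% of the rest.

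Within the genes that had both, the NUP210 peak reached the H3K4me3 peak in some and not in others. Of 3192 such genes with an H3K4me3 peak inside the gene body, 1400 (43.9%) had no NUP210 on the H3K4me3 bp and 1087 (34.1%) had it on all of them. Pooled over bp, NUP210 covered 49.5% of the H3K4me3 bp and 44.6% of the gene bodies. The order turned within classes of gene length, where the H3K4me3 bp were covered less than the gene in each, with 60.9 against 62.3% under 30 kb, 48.3 against 52.1% at 30 to 100 kb and 37.5 against 39.2% at 100 kb and more. Averaged over genes the values were 45.5 and 53.9%. An equal number of bp at the far end of the same genes gave another order. Pooled, 47.5% of these end bp were covered. By class it was 68.4% under 30 kb, 43.9% at 30 to 100 kb and 27.8% at 100 kb and more. So the H3K4me3 bp were covered more than the gene end in the longer classes, and less under 30 kb.

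Cover was lower in the first kilobases than further into the gene, and was lower toward the gene end as well. In 1399 genes of 30 to 100 kb with both peaks, NUP210 covered 34.4% of the bp of the first kb, 41.9% from 1 to 2 kb, 49.1% from 2 to 3 kb and 55.8% from 4 to 5 kb, and 57.4% from 10 to 15 kb. At the gene end the last kb was covered at 40.4% and the bp 4 to 5 kb before the end at 41.3%, without such a step. In 592 genes of that length with NUP210 only, cover was 35.3% in the first kb and 46.2% at 5 to 7.5 kb. Toward the end of these genes it was higher, at 43.1% from 10 to 15 kb before the end and 48.9% in the last kb, where genes with both had 47.3 and 40.4%. NPC peaks gave a like profile in H3K4me3 genes, with 36.3% in the first kb and 59.7% from 10 to 15 kb. In 796 genes of 100 kb and more with both peaks, NUP210 cover was 25.3% in the first kb and 40.8% at 5 to 7.5 kb. With NUP210 only, 711 genes of that length had 21.0 and 37.2%. The rise after the gene start was thus not particular to genes with H3K4me3. NUP210 and NPC peaks were called in windows of 1000 bp, so the place of an edge is known to about 1 kb.

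**Figure D3:**
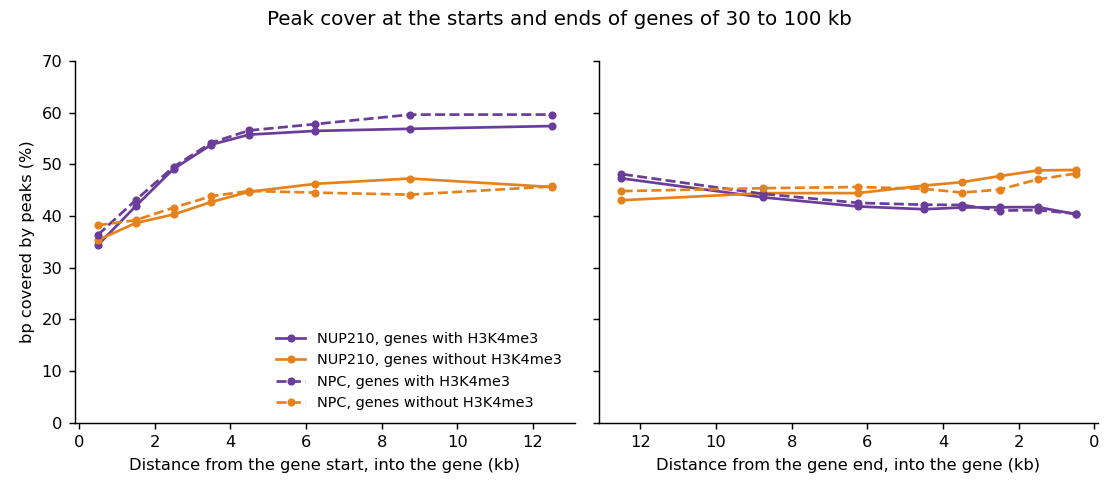
Share of bp covered by NUP210 (solid) or NPC (dashed) peaks (%, vertical axis) against the distance into the gene from its start (left) and from its end (right), in kb, for genes of 30 to 100 kb with a peak on the gene body. Purple marks genes with H3K4me3 at the TSS and orange genes without. NUP210 cover in the genes with H3K4me3 is 34.4% in the first kb and 57.4% at 10 to 15 kb.

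Beyond the downstream edge of the H3K4me3 peak, NUP210 cover was a little higher than inside it. This was read in 2040 genes with both, of 30 kb and more, whose densest H3K4me3 peak spanned the TSS. Cover in them was 45.8% inside the peak, 49.8% in the first kb beyond the edge and 52.4% at 5 to 10 kb. Split by the width of the H3K4me3 peak, cover inside it was 27.6% in the 680 narrowest, 39.5% in the middle 680 and 57.4% in the 680 widest, and cover just beyond the edge was 32.3, 51.5 and 65.6%. In each set the inside value was the lower. At the first base of the gene, 37.0% of the genes with both and 38.8% of NUP210-only genes of the same length were covered, a difference of -1.78 points that was -0.21 without olfactory and vomeronasal receptor genes, but within 4 kb on either side the order was 63.7 and 56.3%.

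Genes with both that had the strongest NUP210 peak on their densest H3K4me3 peak reached no more than a fold of 2.504, among peaks with at least 100 NUP210 reads. Zcchc4, an rRNA methyltransferase gene, had 157 NUP210 reads against 62 IgG reads there (fold 2.504) and 532 H3K4me3 reads per kb. Upf2 had 167 against 66 reads (fold 2.502) with NUP210 over 66.5% of its 105 kb. Fam110c had 125 against 50 reads (fold 2.47), and Vrk2, a kinase gene, 175 against 71 (fold 2.44). These 4 NUP210 peaks were 4 kb wide each, narrower than the median NUP210 peak.

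The widest H3K4me3 domains among genes with both included those of transcription factor and epithelial genes. Trps1 (chr15:50654759-50890041), encoding a GATA-type zinc finger repressor, had a domain of 27200 bp with 2273 reads per kb, and NUP210 covered 98.7% of its 235 kb at a fold of 1.096. Tmprss11e, a membrane serine protease gene, had 25000 bp with 947 reads per kb and NUP210 over 85.2% of the gene at a fold of 1.04. The neighbours Cox20 and Hnrnpu shared 1 domain of 23600 bp, with NUP210 at a fold of 1.095. Nfib, a nuclear factor I gene, had 21600 bp with 1070 reads per kb and NUP210 over 27.9% of the gene, none of it on the H3K4me3 peak.

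The genes with NUP210 only that had the most NUP210 bp included neural adhesion and receptor genes. Lrp1b (chr2:40596773-42653598), an LDL receptor family gene of 2057 kb, had 55 NUP210 peaks over 1414 kb, or 68.8% of the gene. Cntn5 had 11 peaks over 94.4% of its 1244 kb. Sgcz, a sarcoglycan gene, was covered over 79.6% of 1139 kb and Erbb4, a receptor tyrosine kinase gene, over 82.1% of 1068 kb. Each of these 4 also had H3K27me3 and NPC peaks on the gene body.

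The highest folds in NUP210-only genes came from short peaks. Cpne4, a copine gene, had a peak of 122 reads against 24 IgG reads (fold 5.03), but NUP210 covered 2.58% of the gene. Olfr248 (101 against 23 reads, fold 4.34), Mid2 (123 against 29, fold 4.19), 9530051G07Rik (191 against 46, fold 4.11) and Olfr469 (147 against 36, fold 4.04) followed. These folds are above the 2.504 reached on the densest H3K4me3 peak of genes with both, among peaks with at least 100 NUP210 reads. That sets unlike places side by side, the whole gene body and the H3K4me3 peak. Elsewhere on the gene body, genes with both also passed 2.504, as at Rad51b (105 against 36 reads, fold 2.88).

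At the other end stood long genes with H3K4me3 but no NUP210 peak. Camta1, a transcription activator gene of 802 kb, had 300 H3K4me3 reads per kb over 4000 bp, and Cdkal1, a tRNA-modifying enzyme gene of 530 kb, had 675 reads per kb over 4400 bp. Mast4 (602 kb, 316 reads per kb), Elmo1 (518 kb, 213 reads per kb) and Dock1 (503 kb, 214 reads per kb) had less than the unbound median of 529. The highest levels among H3K4me3-only entries were at Pisd-ps3 on an unplaced contig and at 1 peak of 400 bp shared by 9030025P20Rik, Gm3417 and Gm3448. Reads of near-identical copies cannot be placed with certainty, so these levels are uncertain. Mir125b-1, a microRNA gene, followed with 2499 reads per kb over 13200 bp.

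Gene families sorted into the 3 classes unevenly, read against 59.3% with H3K4me3 only, 21.1% with both and 19.5% with NUP210 only over all genes of either list. Of 63 ribosomal protein genes, 62 had H3K4me3 only, where the length classes alone would give 4.44 bound genes. Rps12 had 1281 reads per kb over 5800 bp and Rpl37 had 1444 over 5400 bp, both with no NUP210. The 1 bound member was Rpl30, with 1644 reads per kb and NUP210 over the full gene at a fold of 1.22.

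Of 29 nucleoporin genes, 28 were found in either list, and all 28 had H3K4me3 and 12 had NUP210 as well (42.9%), against 9.78 from the length classes. Tpr had 1491 H3K4me3 reads per kb and NUP210 over all of its 57.1 kb at a fold of 1.14. Nup155, a scaffold nucleoporin, had 1229 reads per kb and NUP210 over 90.7% of the gene, and Nup98, a mobile nucleoporin with FG repeats, 583 reads per kb and 56.4%. Nup133, of the outer ring, had 1245 reads per kb and no NUP210 peak. Nup210 itself had 340 reads per kb over 2600 bp and no NUP210 peak on its 104 kb.

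Integrin and focal adhesion genes link the matrix to the cytoskeleton. Of 30 such genes, 28 had H3K4me3 and 2 (Tln2 and Tns1) were in neither list. NUP210 was on 9 of the 28 (32.1%), against 12.8 from the length classes. Itgb1, the beta 1 integrin, had 1486 reads per kb and NUP210 over 91.7% of 47.9 kb at a fold of 1.12. Lpp, a LIM domain gene of focal adhesions, had 586 reads per kb and 13 NUP210 peaks over 375 kb, the strongest at a fold of 2.44. Vcl, encoding vinculin, had 588 reads per kb and 55.3% of the gene covered. Ilk, the integrin-linked kinase, had 923 reads per kb and no NUP210 peak. Of 14 LINC complex and lamina genes, which tether the cytoskeleton to the nuclear envelope, 2 were bound (14.3%), Syne1 with NUP210 over 83.1 kb and Lemd3 over 63.6% of the gene, against 4.64 from the length classes.

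Enzymes that write and erase the 2 histone marks had H3K4me3 at 24 of 25 genes, the other one being in neither list, and NUP210 at 10 of the 24 (41.7%), against 7.89 from the length classes. Suz12, a Polycomb subunit, had 1570 reads per kb and NUP210 over 80.5% of the gene at a fold of 0.97. Ezh2, the H3K27 methyltransferase, had 581 reads per kb and NUP210 over 69.5% at a fold of up to 1.52. Ash2l, a COMPASS subunit, had 1268 reads per kb without NUP210. Among the Zfp zinc finger genes, 224 of 316 had H3K4me3 only, 81 both (25.6%) and 11 NUP210 only. The length classes alone would give 59.1 bound among the 305 with H3K4me3.

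Of 18 developmental transcription factor genes found in either list, out of 42, 12 had H3K4me3 only, 5 NUP210 only and 1 both. Gata3, a luminal mammary regulator, had 1044 reads per kb over 24200 bp and no NUP210 peak, Pax3 had NUP210 only over 14.6% of the gene, and Lhx9 had both, with 126 reads per kb.

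The 2 lists of long genes, chosen with earlier results of these data known, fell mostly into different classes. Of 30 long genes used in many tissues, 20 had both, 6 NUP210 only and 4 H3K4me3 only, with a median length of 431 kb. Of the 24 with H3K4me3, 20 were bound, against 16.5 from the length classes. Rad51b, of homologous recombination, had 2038 reads per kb and 10 NUP210 peaks over 111 kb, Vps13b, of lipid transport, 1236 reads per kb and 76.4% covered, and Ptprk, a receptor phosphatase, 909 reads per kb over 11200 bp and 82.6% covered. Of 38 long neural adhesion and synapse genes, 36 had NUP210 only and 2 both, with a median length of 930 kb and 790 distinct NUP210 peaks. The 2 with both were Csmd3, with 71 reads per kb, and Cdh13, with 82.5 reads per kb, both far under the bound median of 701. The H3K4me3 peak of Csmd3 held 71 reads against 46 IgG reads (fold 1.45), so its place among genes with both rests on a weak signal. That of Cdh13 had a fold of 5.36. H3K27me3 peaks lay on 32 of the 38 neural genes and on 7 of the 30 long genes used in many tissues.

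Chemosensory receptor genes were nearly all in the NUP210-only class. Of 698 olfactory receptor genes found in either list, 690 had NUP210 only, 5 both and 3 H3K4me3 only. These genes stand in clusters, and the 695 bound ones shared 472 distinct NUP210 peaks, so they are not separate observations. Their peaks had a median fold of 1.22, and 79.9% had an FDR of at most 0.05. Of 116 vomeronasal receptor genes, 115 had NUP210 only. Near-identical receptor copies make the placing of reads uncertain here too.

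**Figure D4:**
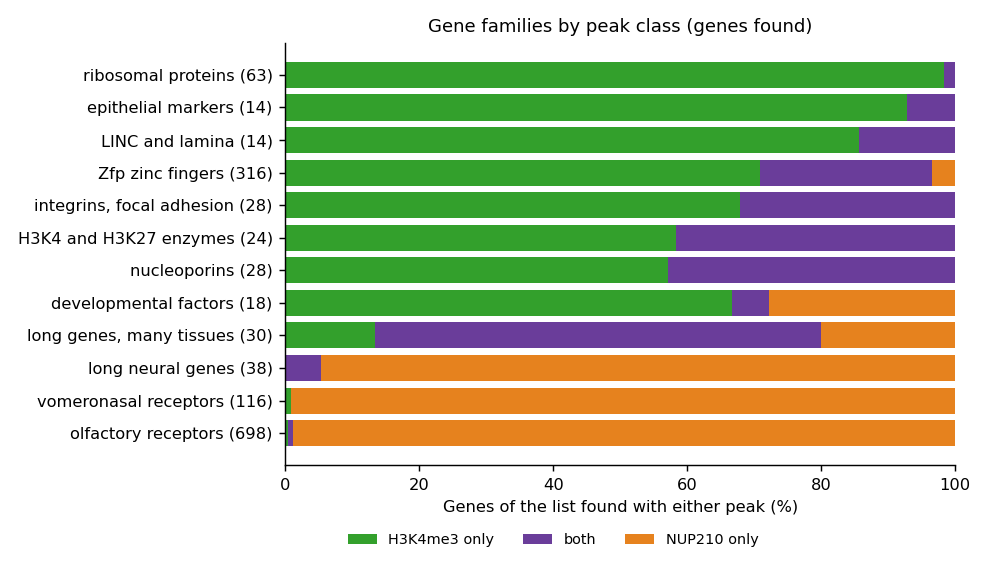
Genes of each family found in either list (number in brackets), split into H3K4me3 only (green), both (purple) and NUP210 only (orange), as % of those found on the horizontal axis. Ribosomal protein genes lie at the H3K4me3-only end with 62 of 63, long neural genes (36 of 38) and olfactory receptor genes (690 of 698) at the NUP210-only end.

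The genes that the study measured one by one had low NUP210 folds. Those given here all had H3K4me3, and 3 of them had NUP210, where 26.3% of all H3K4me3 genes were bound. So few genes cannot be set apart from that share. Ptk2 (chr15:73205105-73423191), encoding focal adhesion kinase, had 1509 H3K4me3 reads per kb and NUP210 peaks over 96.7% of its 218 kb, but the peak with the higher fold had 5693 NUP210 against 5970 IgG reads (fold 0.94). Postn, encoding the matricellular protein periostin, had 77.0 reads per kb, and its NUP210 peak had 571 against 528 reads (fold 1.07). Cxcl3, a chemokine gene, was touched over 90 bp by a peak of 579 against 502 reads (fold 1.14). Cxcl1, a chemokine gene with 609 reads per kb, Ccl2 with 39.7, Il1a with 293, Itga7 with 230 and Itgb2 with 347 had no NUP210 peak on the gene body. The H3K4me3 peak of Ccl2 held 119 reads against 56 IgG reads (fold 2.00). Its place among the H3K4me3 genes thus rests on a weak signal.

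Readouts that the grouping did not use separated the classes further. NPC peaks lay on 80.7% of the genes with both (interval 79.3 to 82.0%), on 74.8% with NUP210 only (73.2 to 76.3%) and on 4.88% with H3K4me3 only (4.46 to 5.34%), against 34.5% of all genes of either list. H3K27me3 peaks lay on 65.7% of NUP210-only genes (64.0 to 67.4%), 10.2% of genes with both (9.19 to 11.3%) and 4.25% with H3K4me3 only (3.85 to 4.68%), against 17.5% over all. Weighted to the lengths of the genes with both, H3K27me3 was on 8.67% of H3K4me3-only genes and on 72.6% of NUP210-only genes. NPC peaks were weak as well, and the NPC and NUP210 lists come from cells of 1 line.

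CpG content of the promoter, the observed over expected CG count in the 300 bp shown above for single genes, was read from the NCBIM37 assembly by gene name. The median was 0.80 for genes with both (3100 of 3271 matched), 0.73 with H3K4me3 only (8543 of 9182) and 0.22 with NUP210 only (2673 of 3020). A ratio of at least 0.6 was found in 75.8, 67.1 and 15.8% of them. Without olfactory and vomeronasal receptor genes the NUP210-only median was 0.32, and at 30 to 100 kb the 3 medians were 0.81, 0.78 and 0.32. NUP210-only genes therefore differed from both H3K4me3 classes in promoter CpG at like length, while the 2 H3K4me3 classes differed by 0.04 when weighted over length classes. Of the promoters shown above, Olfr469 had a ratio of 0.17, near the median of the NUP210-only class, and Cntn5 one of 0.78, above its upper quartile of 0.45.

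**Figure D5:**
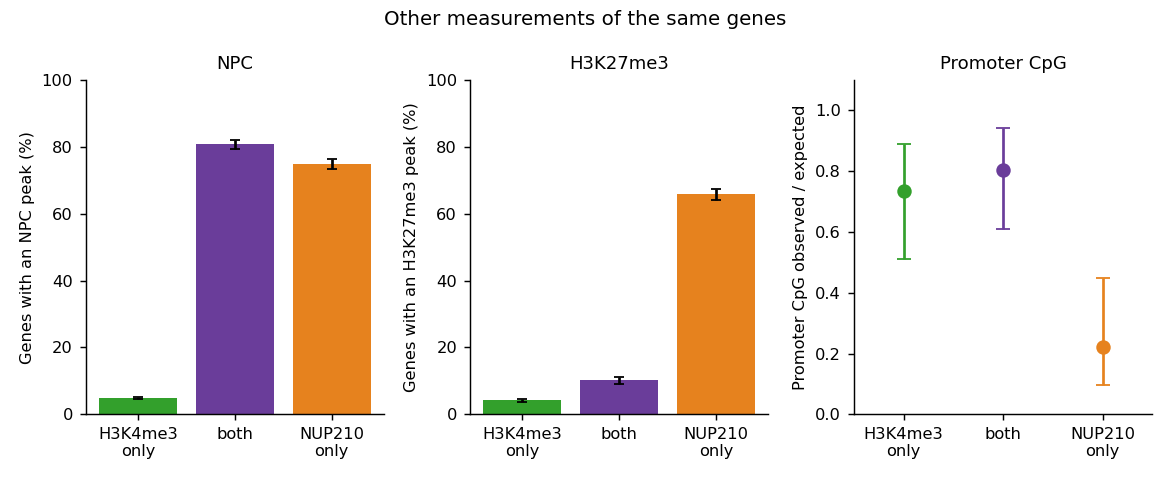
Share of genes with an NPC peak (left) and with an H3K27me3 peak (middle), in %, with 95% Wilson intervals as bars, and promoter CpG observed over expected (right; points are medians, bars the quartiles) for genes with H3K4me3 only, both and NUP210 only. H3K27me3 is on 65.7% of NUP210-only genes and on 10.2% of genes with both, and median CpG is 0.22 and 0.80.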

How the data were processed

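ChIP-seq of sg-Ctrl 4T1 cells was analysed from the peak lists of H3K4me3, NUP210, NPC and H3K27me3, with H3K4me3 of Nup210 KO-N13 cells as an alternative. The authors called peaks per library with SICER against IgG, with a window of 200 bp (H3K4me3) or 1000 bp (NUP210), and intersected them with TSS regions or gene bodies. They deposited raw counts of ChIP and IgG reads, p-values, FDR values and the fold over IgG (a ratio scaled by library size), in which 0 IgG reads count as 0.25. Library depth beyond the reads in peaks is unknown.

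Peaks repeated over genes were collapsed. Level was ChIP reads per kb of the densest TSS peak. Differences are of median log2 values in 20 classes of gene length, weighted by bound genes, with intervals from order statistics. Shares have 95% Wilson intervals, and overlap needed 1 bp. No test over replicates was possible. The members and lists were chosen with earlier results of these data known. Named genes are those of the lists with the most H3K4me3 or NUP210 and at most 5 per class by fold (at least 100 reads), width, length or level. Some values of other list members (Epcam, Cdh1, Nup98, Vcl and Ezh2 among them) were added after they were seen. Values of 2 further genes that the rule names are not reported here. List members were matched by symbol or, for older names, by RefSeq accession. Of 11188 genes matched to the GRCm38.p6 promoter table, 90.3% had a TSS within 50 bp of it, so the lists are read as that build. Since 72.3% of the 15473 genes matched, class medians of CpG used NCBIM37. Steps were tested on simulated data. The tools were matplotlib 3.10.9, pandas 2.3.3 and numpy 2.4.6 under Python 3.11.15, with scipy 1.17.1. The authors' H3K27me3 list of KO cells and the RNA-seq samples were not used here.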

Additional observations from a re-analysis of the deposited data

How the results depend on the processing

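Of 94 alternatives to 21 values, 45 stayed within the counting interval (for counts, within 1.5 times), 43 moved beyond it and 6 reversed, and 14 of the 94 were chosen after the data were seen. Those counted as moved include alternatives in another unit than the main value. These are GC content beside the CpG ratio, and the share of peaks passing the FDR beside the NUP210 fold. Their unit alone puts them beyond the interval. No paired analysis was possible because each target has 1 library per condition. Limits are the weak NUP210 folds, the unknown depth, 1 library per target and peaks away from genes, which were not analysed here.

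With NUP210 peaks of a fold of at least 2 alone, 170 genes had both and 228 NUP210 only, 1.37% of H3K4me3 genes were bound (0% of the shortest class and 7.95% of the longest), 42.7% of NUP210 genes had H3K4me3, the level and width differences were 0.060 and 0.011, and 0.154% of H3K4me3 peaks lay on NUP210. The genes left out then counted as unbound. Against genes with no NUP210 peak at all, the bound genes of that fold differed by 0.34 in level and 0.23 in width. With an FDR of at most 0.05 the bound share was 20.5% (4.57% in the shortest and 59.7% in the longest class), 50.7% of NUP210 genes had H3K4me3, level and width differed by 0.45 and 0.36, 9.80% of H3K4me3 peaks lay on NUP210, and cover of the H3K4me3 bp exceeded that of the gene by 6.77 percentage points. With a fold above 1, 23.7% were bound and 12.6% of H3K4me3 peaks lay on NUP210. With H3K4me3 folds of at least 10, 50.2% of NUP210 genes had H3K4me3. Genes of 300 kb and more were bound at 76.3%.

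The level difference was -0.32 on the authors' fold over IgG, 0.80 on total reads, 0.41 without classes, 0.34 in KO cells, 0.22 within IgG classes, 0.43 within chromosomes and 0.27 within IgG and length classes. The width difference was 0.35 on summed width and 0.33 within IgG and length classes. Requiring at least 50% or all of the H3K4me3 peak, 10.7 and 8.23% lay on NUP210. The cover difference of 4.90 points was -8.42 averaged over genes and -1.36, -3.82 and -1.64 in the 3 length classes. At the gene start, both minus NUP210 only was -1.78 points at the first base, -0.21 there without receptor genes and 7.39 within 4 kb. The lower fold of NUP210 peaks on H3K4me3 (-0.05 over width classes) stood as -7.20 points in the share with an FDR of at most 0.05. With that limit on the other peaks, NPC was on 51.7, 3.52 and 48.5% of genes with both, H3K4me3 only and NUP210 only, and H3K27me3 on 62.0% of the last. The CpG ratio difference of genes with both from NUP210 only (0.58) was 0.49 at 30 to 100 kb and 0.49 without receptors, and from H3K4me3 only (0.07) 0.033 at 30 to 100 kb. In GC content they were 19.0 and 2.00 points.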
